A study of Mus musculus with 4 samples.

Results

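Contractile smooth muscle and the pacemaker cells of the gut wall were followed through 10 genes, namely Acta2, Actg2, Myh11, Tagln, Cnn1, Des, Lmod1, Synpo2, Kit and Ano1. They were picked by gene symbol from the 29011 genes of the deposited table, and all 10 had a row and passed the filter on low values. RNA from the total small intestine of pups (mouse, postnatal day 8) had been sequenced in 2 control and 2 Lats1/2 KO libraries. The design text describes the controls as Lats1/2f/f mice that lack Cre, whereas their genotype label reads VilCre-; Lats1/2-/-. The genotype label of the Lats1/2 KO samples reads VilCre+; Lats1/2-/-. VilCre expresses Cre recombinase from the Villin promoter, which is active in gut epithelium and not in muscle or pacemaker cells. The labels do not say that each library came from its own animal, so p-values measure the spread between these libraries, which may be technical. Library numbers within a group follow the order of the columns, serve as names only, and pair nothing.

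Visceral smooth muscle forms the outer layers of the gut wall and the thin muscularis mucosae, and it contracts when myosin slides along filaments of smooth muscle actin. Most of its contractile genes are switched on by serum response factor (SRF) with the co-activator myocardin, at DNA elements called CArG boxes. Interstitial cells of Cajal lie between the muscle layers and set the rhythm of contraction: they depend on the receptor tyrosine kinase KIT, and calcium opens their chloride channel ANO1 to generate slow waves. Whole tissue was used, so fewer cells of a type and less RNA per cell cannot be told apart.

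The libraries held 25135964 to 32361940 recovered reads. Lats1, one of the targeted kinases, fell in the Lats1/2 KO libraries (log2 change -1.79, adjusted p = 0.00055 by limma), while Lats2 had a log2 change of -0.03 (adjusted p = 0.868 by limma). Whole-gene counts of Lats2 do not test for a deleted part. In the GENCODE M21 annotation 42.4% of the exonic bases of Lats2 are also shared with other annotation on the same strand. The effect of this sharing on its count was not tested. Epithelial markers of the labelled tissue were abundant in every library, with Vil1 between 25947 and 28870.4 normalized counts.

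The promoters of Acta2, Kit and Lmod1 are shown because Acta2 represents the contractile genes that varied together between libraries, Kit was the gene that changed, and Lmod1 is a contractile gene whose groups did not overlap. They are the 250 bases before the start of transcription in RefSeq on GRCm38.p6, and 7 of the 10 genes matched an entry there; Actg2, Myh11 and Tagln were not matched. Capitals mark 2 motifs. One is the CArG box, allowing a core in which at least 5 of 6 bases are A or T, and the other is CATTCC on either strand, the letters bound by TEAD factors, which are the DNA-binding partners of YAP and TAZ. The motifs did not overlap each other.
Acta2 (chr19:34255374-34255623, minus strand): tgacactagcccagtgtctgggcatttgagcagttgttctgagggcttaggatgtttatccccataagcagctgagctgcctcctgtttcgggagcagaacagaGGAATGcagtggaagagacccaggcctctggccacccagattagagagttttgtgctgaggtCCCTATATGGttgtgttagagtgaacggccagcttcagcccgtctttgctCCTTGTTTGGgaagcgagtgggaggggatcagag
Lmod1 (chr1:135324563-135324812, plus strand): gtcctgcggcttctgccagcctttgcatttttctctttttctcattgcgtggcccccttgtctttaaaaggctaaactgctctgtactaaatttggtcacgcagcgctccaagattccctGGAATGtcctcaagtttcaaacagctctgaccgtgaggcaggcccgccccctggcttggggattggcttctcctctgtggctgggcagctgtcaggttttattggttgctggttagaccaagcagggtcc
Kit (chr5:75574737-75574986, plus strand): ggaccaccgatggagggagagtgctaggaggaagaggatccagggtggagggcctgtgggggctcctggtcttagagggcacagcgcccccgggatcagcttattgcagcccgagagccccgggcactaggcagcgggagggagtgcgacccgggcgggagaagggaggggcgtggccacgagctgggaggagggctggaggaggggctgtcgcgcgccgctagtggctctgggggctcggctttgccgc
In Acta2, matches to the CArG box began 84 and 34 bases before the start, and a match to CATTCC on the opposite strand began 146 bases before it. Lmod1 held a match to CATTCC on the opposite strand, 130 bases before its start, and neither motif was found in the windows of Kit, Ano1, Cnn1, Des or Synpo2. Of 32817 promoter windows of this length, 8.6% held a CArG box by this rule and 12.6% held CATTCC. A match describes these letters alone and does not show that a factor binds there.

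Kit was lower in both Lats1/2 KO libraries than in both controls, while the groups overlapped for 6 of the 8 contractile genes and for Ano1. By limma across all 16415 tested genes, 1 of the 10 genes fell (Kit), 0 rose and 9 did not pass an adjusted p of 0.05. Over all tested genes 12.3% fell, 15.2% rose and 27.5% passed in either direction. The count at an unadjusted p under 0.05 was 3 of the 10 genes (Lmod1, Synpo2 and Kit), against 41.3% of all tested genes. The median log2 change of the 10 genes was -0.17, beside 0.00 over all tested genes.

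**Figure D1:**
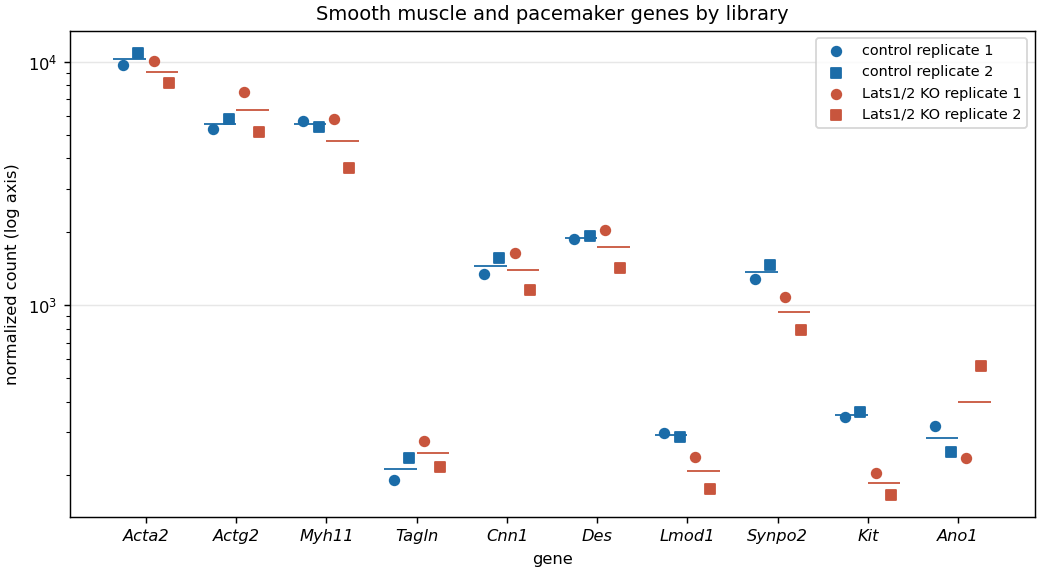
Normalized counts (vertical log axis) of the 10 genes in each of the 4 libraries, with blue points for controls, red points for Lats1/2 KO, and short lines for the group means. Kit was at 346 and 362 in the controls and at 204 and 166 in the knockouts, whereas the red and blue points of Acta2, Actg2, Myh11, Tagln, Cnn1 and Des overlap.

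Kit (ENSMUSG00000005672, chromosome 5, 75574916 to 75656722, plus strand of GRCm38) had 346 and 362 normalized counts in control replicates 1 and 2, and 204 and 166 in Lats1/2 KO replicates 1 and 2. Both knockout libraries lay below both controls, with a gap between the groups wider than the spread inside either. Kit fell 1.92-fold, a log2 change of -0.94 ± 0.14 (SE) whose 95% interval ran from -1.29 to -0.59 (adjusted p = 0.00779 by limma). The call held in all 12 alternative fits, where the log2 change ran from -1.09 to -0.80 and the adjusted p from 0.00012 to 0.0403. The authors' deposited table gave Kit a shrunken log2 fold change of -0.79 and an adjusted p of 0.000154, and 1 of the other genes, Synpo2, was below 0.05 there, in a table where 23.0% of 16637 genes with an adjusted p were, 10.2% as lower in the mutants.

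Kit was also set against muscle within each library. On the log2(normalized count + 1) scale, its difference from the median of the 8 smooth muscle genes was -2.19 and -2.26 in the controls and -3.16 and -2.94 in the knockouts. The difference between the groups was -0.83, and these values did not overlap. With 2 libraries against 2, the exact two-sided permutation p was 0.333, the smallest this design can give.

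Kit is also made by mast cells and, in mouse gut, by secretory cells of the crypt base. The mast cell list had 8 tested genes, of which 1 fell, 0 rose and 7 did not pass; their median log2 change was -0.20. Its summed level was 306 and 515 normalized counts in the controls and 289.6 and 400.3 in the knockouts, so the groups overlapped. Tpsab1, Ms4a2 and Fcer1a were below the filter, and none of the list's markers was at 0 in every library. Hdc, the histamine-forming enzyme, was the mast cell gene that fell, 2.17-fold (adjusted p = 0.0467 by limma), or 1 of 8 beside the 12.3% of all tested genes. It did not pass 0.05 in the authors' deposited table (adjusted p = 0.155). The proteases Cma1 and Mcpt4 had log2 changes of -0.91 and -0.44 (adjusted p 0.0741 and 0.263 by limma). Counting Hdc, 3 of the 8 tested genes had both knockouts below both controls, beside 33.4% of all tested genes. The groups overlapped for Cpa3, Tpsb2, Mcpt2, Mcpt1 and Gata2, with log2 changes of -0.03, -0.07, -0.02, 0.07 and -0.33. In a crypt-base secretory list chosen after values were seen, 3 of 4 tested genes fell, beside 12.3% of all tested genes. Its summed level was 35645.5 and 24789.6 normalized counts in the controls and 1933 and 2277 in the knockouts. Most of that sum came from Itln1, at 27610 and 17495 in the controls, and Defa24, at 7664 and 7022. No gene of that list was at 0 in every library, and the one below the filter was Ang4. The part of either cell type in the fall of Kit was not tested.

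Ano1 (ENSMUSG00000031075, chromosome 7, 144588549 to 144751974, minus strand), the other pacemaker gene, had 318 and 248 normalized counts in the controls, and 234 and 564 in Lats1/2 KO replicates 1 and 2. The second knockout library was above the other 3, and the first was below both controls. Its log2 change was 0.37 ± 0.41 (SE), and the 95% interval reached from -0.65 to 1.39 (adjusted p = 0.536 by limma). One library decided its direction: without Lats1/2 KO replicate 1 the log2 change was 1.003 (adjusted p = 0.0459 by limma) and without replicate 2 it was -0.26 (adjusted p = 0.457 by limma), with adjusted p from 0.0459 to 0.809 over all alternatives. Kit over Ano1 was 1.09 and 1.46 in the controls, and 0.87 and 0.295 in the knockouts.

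**Figure D2:**
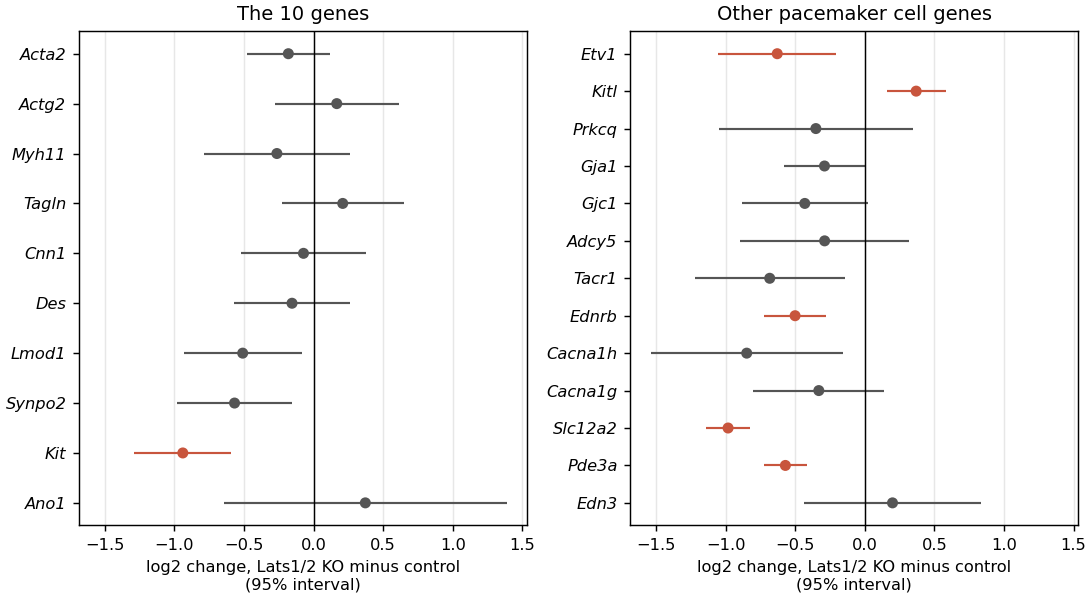
Log2 change between Lats1/2 KO and control libraries (horizontal axis) with 95% intervals from limma, for the 10 genes on the left and 13 other pacemaker cell genes on the right; red marks an adjusted p below 0.05. On the left the interval of Kit, from -1.29 to -0.59, is the one drawn in red.

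In a wider list of 14 genes linked to pacemaker cells, all tested, 5 fell, 1 rose and 8 did not pass. The median log2 change was -0.47, beside 12.3% of all tested genes that fell and a median of 0.00. The gene for the KIT ligand, Kitl, was the 1 that rose, from 2645 and 2299.6 to 3141 and 3229 normalized counts (1.29-fold, adjusted p = 0.029 by limma). Etv1, a transcription factor that mouse interstitial cells of Cajal need and that KIT signalling keeps stable, went from 198 and 241 to 155 and 128. It fell 1.55-fold (adjusted p = 0.0449 by limma). Etv1 did not pass the threshold in the authors' deposited table (adjusted p = 0.0631). Slc12a2, a cotransporter that loads these cells with chloride but is also abundant in crypt epithelium, fell 1.98-fold. Pde3a, a cyclic nucleotide phosphodiesterase, fell 1.49-fold, and Ednrb, an endothelin receptor, 1.42-fold. The control means of Slc12a2, Pde3a and Ednrb were 4639, 4182 and 1622 normalized counts, beside 354 for Kit. The part of pacemaker cells in the changes of this list was not tested. The choice of Etv1 and Kitl followed a look at their values. Without Lats1/2 KO replicate 1 the list had 3 falls and 0 rises, and without replicate 2 it had 2 falls and 0 rises.

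The thin-filament and motor genes of smooth muscle were abundant, and their groups overlapped. Acta2, smooth muscle alpha-actin (chromosome 19, 34241090 to 34255590, minus strand), had 9687 and 10818 normalized counts in the controls and 10014 and 8132 in the knockouts. One knockout library lay between the controls and the other below them, and the log2 change was -0.18 ± 0.12 (SE), with an interval of -0.48 to 0.12 (adjusted p = 0.305 by limma). Actg2, the gamma-actin of visceral muscle (chromosome 6, 83512905 to 83536265, minus strand), had 5301 and 5814 in the controls and 7516 and 5160.5 in the knockouts. Here the knockouts fell on either side of the controls, with a log2 change of 0.17 and an interval of -0.28 to 0.61 (adjusted p = 0.527 by limma). Myh11, the smooth muscle myosin heavy chain (chromosome 16, 14194535 to 14291372, minus strand), had 5687 and 5399 in the controls and 5806 and 3666 in the knockouts. Its first knockout library was the highest of the 4 and its second the lowest, and the log2 change was -0.26, from -0.79 to 0.26 (adjusted p = 0.391 by limma).

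The actins and the myosin share little sequence with other genes. Of the 50-base windows in Acta2 transcripts of GENCODE M21, 0.326% also occur in a transcript of another gene. The share was 0 for Actg2 and 0.34% for Myh11, whose partners were the non-muscle heavy chains Myh9 and Myh10. The sources used here give neither the read length nor the treatment of reads with several matches. Actg2 over Acta2 was 0.547 and 0.537 in the controls and 0.751 and 0.635 in the knockouts, so the visceral isoform made up more of the pair in both knockout libraries; this ratio was chosen after its values were seen and was not tested.

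Among the regulators of the filament and the cytoskeleton, Cnn1 and Des also overlapped between the groups. Cnn1, calponin, which binds actin and restrains myosin (chromosome 9, 22099216 to 22109630, plus strand), had 1338 and 1565 normalized counts in the controls and 1643 and 1151 in the knockouts. The knockouts enclosed the controls, and the log2 change was -0.07 with an interval of -0.52 to 0.38 (adjusted p = 0.79 by limma). Des, desmin, the muscle intermediate filament (chromosome 1, 75360329 to 75368579, plus strand), had 1863 and 1924 in the controls and 2028 and 1424 in the knockouts. These again lay on either side of the controls, with a log2 change of -0.16, from -0.57 to 0.26 (adjusted p = 0.523 by limma).

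Tagln, transgelin or SM22-alpha, an actin-bundling protein of smooth muscle (chromosome 9, 45929619 to 45936058, minus strand), had 191 and 234 normalized counts in the controls and 277 and 217 in the knockouts. Its groups overlapped, with a log2 change of 0.21, from -0.23 to 0.65 (adjusted p = 0.42 by limma). The level of Tagln is uncertain. In GENCODE M21, 67.9% of its exonic bases are shared with genes on the opposite strand, 62.4% with the antisense gene Gm48529 and 5.43% with Pcsk7. The sources used here do not give the strand setting of the counting, and without it reads of Tagln and Gm48529 cannot be told apart. Gm48529 was at 37.0 to 49.96 normalized counts per library. For the other 9 genes the share was 5.86% for Des, with Gm15179, and 0 for the rest.

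Lmod1 and Synpo2 were lower in both knockout libraries than in both controls, but neither passed the threshold. Lmod1, leiomodin, which seeds actin filaments in smooth muscle (chromosome 1, 135324807 to 135368065, plus strand), had 297 and 287 normalized counts in the controls and 238 and 176 in the knockouts. Its log2 change was -0.51 ± 0.17 (SE), from -0.93 to -0.09, with an adjusted p of 0.0777 by limma. Synpo2, synaptopodin 2 or myopodin, which bundles actin filaments in muscle (chromosome 3, 123076519 to 123236149, minus strand), had 1274 and 1466 in the controls and 1079.7 and 786 in the knockouts. Its log2 change was -0.57 ± 0.16 (SE), from -0.98 to -0.16, with an adjusted p of 0.0538 by limma. DESeq2 on the recovered reads called Synpo2 (adjusted p = 0.0134), as did the authors' deposited table (adjusted p = 0.0125), and limma called it without Lats1/2 KO replicate 1 (adjusted p = 0.0305), within a range of 0.0134 to 0.167 over the alternatives. Counting Kit, 3 of the 10 genes had both knockouts below both controls and 0 had both above. The groups did not overlap in 68.3% of all tested genes, with the knockouts below in 33.4% and above in 34.9%.

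The 8 smooth muscle genes varied together between the 2 knockout libraries. All 8 were lower in Lats1/2 KO replicate 2 than in replicate 1, by a median log2 difference of -0.48, whereas 46.6% of all tested genes were lower there. Replicate 2 was below both controls for 7 of the 8 genes and replicate 1 for 2 of them, beside 40.9% of all tested genes for each library. The 8 genes summed to 25639 and 27508 normalized counts in the controls, and to 28600.3 and 20712 in the knockouts. Between the controls their median log2 difference was 0.15. Without replicate 1 of the knockouts 3 of the 10 genes fell (Kit, Synpo2 and Myh11) and Ano1 rose, and without replicate 2 Kit alone passed. Enteric neuron and glia genes, which lie in the same wall, were also lower in replicate 2 than in replicate 1 in 11 of 12 tested genes, with a median log2 difference of -0.35. In the 3 further smooth muscle lists given below, 49 of 63 genes were lower there, by a median of -0.16. So were 6 of 6 subepithelial, 7 of 9 fibroblast and 6 of 8 endothelial genes. The counts were 3 of 7 for pericyte, 5 of 10 for epithelial, 2 of 8 for mast cell and 0 of 4 for mesothelial genes. Whether the amount of muscle wall in the tissue differed was not tested.

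**Figure D3:**
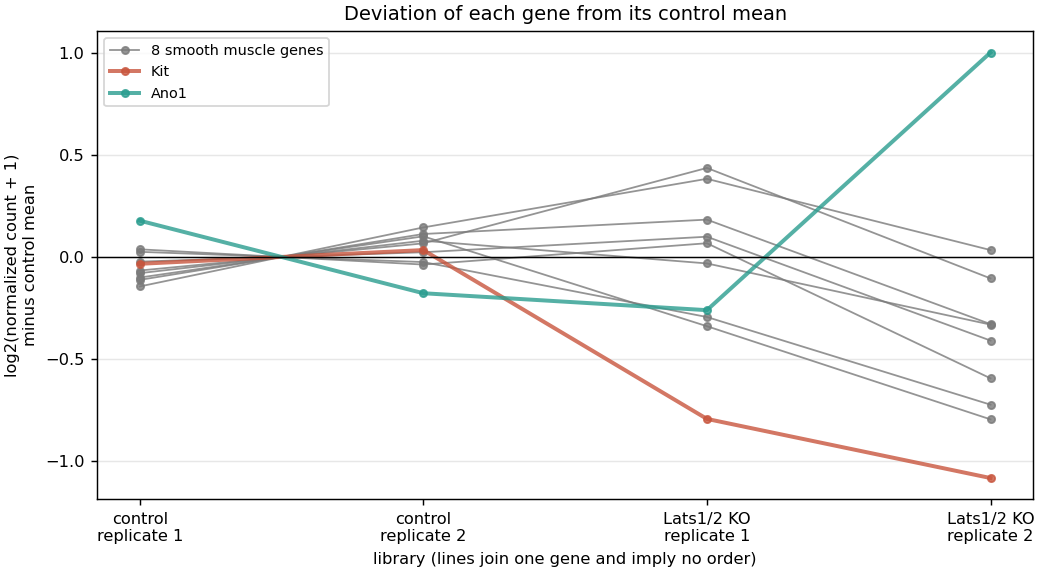
Deviation of each gene from its control mean, as log2(normalized count + 1) (vertical axis), in the 4 libraries, with 8 smooth muscle genes in grey, Kit in red and Ano1 in green. All 8 grey lines are lower in Lats1/2 KO replicate 2 than in replicate 1, Kit is low in both knockout libraries, and Ano1 is high in replicate 2 alone.

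Set side by side per length, in RPKM (recovered reads scaled to exon length and library depth), the control levels ran from Acta2 at 162 ± 12.9 (SD, n = 2) to Kit at 1.38 ± 0.0478 (SD, n = 2). Actg2 followed Acta2 at 124, and Myh11 was at 25.4, each separated from its neighbours in both controls. Cnn1 at 18.4 and Des at 17.5 overlapped, as did Tagln at 3.72 and Synpo2 at 3.64. Lmod1 at 2.57 stood below them, and Ano1 at 1.58 and Kit overlapped. Over only those exonic bases that no other gene shares, and if the reads had come from these alone, Tagln would be at 11.6. Exon lengths were taken from GENCODE M21, which may differ from the annotation used for counting.

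The pattern of the 8 smooth muscle genes over the 4 libraries was compared with 9699 other tested genes of at least their lowest level. These left out every gene of the lists given here except the crypt-base list, so listed smooth muscle genes could not be among them. Among these candidates, the 5 genes with the closest centred log2 profile were Atp5l, Ntn1, Gm21781, Wsb1 and Lox, with root mean square differences of 0.0303 to 0.0654. Lox encodes lysyl oxidase, which crosslinks collagen and elastin, and Ntn1 the guidance protein netrin-1. Over 4 libraries many genes can share a profile, so this is a description only.

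In 3 further lists of smooth muscle genes, 63 of 65 genes with a row were tested, of which 7 rose, 14 fell and 42 did not pass. Together 33.3% of the 63 passed, beside 27.5% of all tested genes. Falls made up 22.2% of the 63, beside 12.3% of all tested genes, and 7 of 63 rose, beside 15.2%. Of the 63 genes 46 had a negative log2 change, beside 8237 of all 16415. Their median log2 change was -0.18, beside 0.00 over all tested genes. Of 30 contractile and cytoskeletal genes 5 rose and 5 fell, with a median of -0.16. Csrp1, a LIM protein of smooth muscle, rose 1.57-fold, while Npnt, the matrix protein nephronectin, fell 1.38-fold. Mylk, the kinase that phosphorylates the myosin light chain, and Myl9, that light chain, had log2 changes of -0.34 and -0.17 (adjusted p 0.101 and 0.339 by limma); both were picked with their values in view.

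Among 18 tested receptor, channel and signalling genes of smooth muscle, 5 fell, 0 rose and 13 missed the threshold, and the median log2 change was -0.42. Itpr1, the calcium release channel of the endoplasmic reticulum, fell 3.82-fold from 2491 and 2518 to 713 and 603 normalized counts. The muscarinic acetylcholine receptors, through which enteric nerves drive contraction, fell too. Chrm3 went from 112 and 101 to 40.7 and 38.9 (2.63-fold, adjusted p = 0.00591 by limma), and Chrm2 from 306 and 322 to 219 and 193 (1.52-fold, adjusted p = 0.0191 by limma). Itpr1 and Chrm3 are also expressed in gut epithelium, and the part of each cell type was not tested. Of 15 transcription regulators 2 rose and 4 fell, with a median of -0.04. The 2 that rose were Klf4, which is also a factor of the epithelium and rose 1.78-fold, and Mkl1, an SRF co-activator, which rose 1.39-fold. Tcf21, a mesenchymal factor, fell 1.53-fold. Myocd, encoding myocardin, had a log2 change of -0.48 (adjusted p = 0.0912 by limma) and Srf of 0.06 (adjusted p = 0.596 by limma), both picked with their values in view. The 3 lists together had 3 rises and 5 falls without Lats1/2 KO replicate 1, 2 rises and 3 falls without replicate 2, and 8 falls without control replicate 2.

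**Figure D4:**
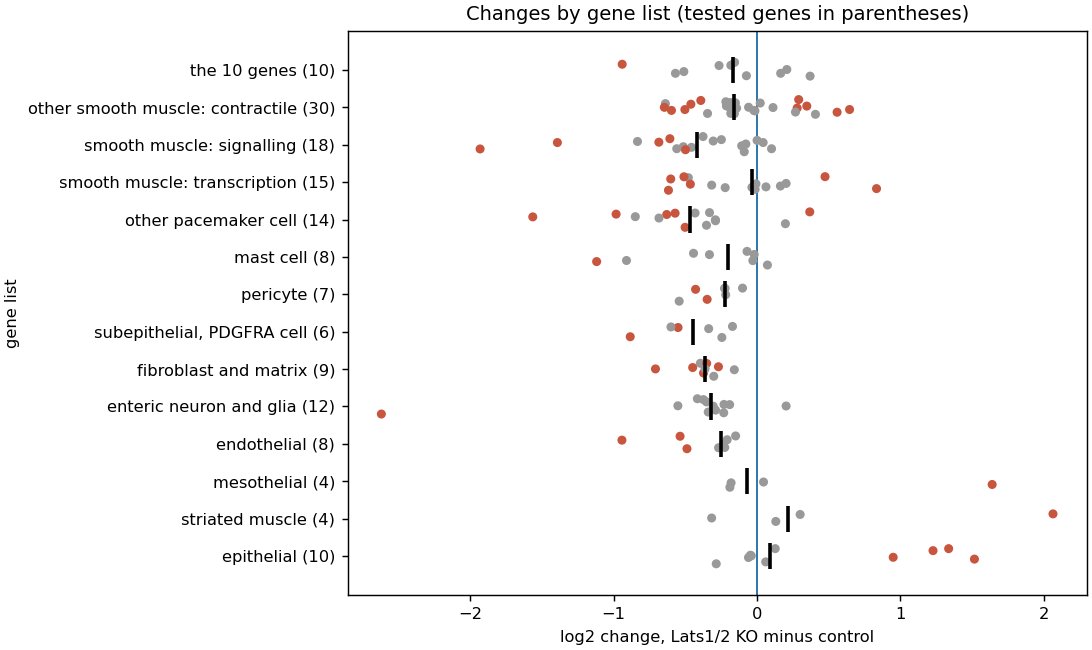
Log2 change between Lats1/2 KO and control libraries (horizontal axis) for each tested gene of 14 lists, with red points past an adjusted p of 0.05, black bars for list medians, and a blue line at the median of all tested genes (0.00). The median bar is at -0.17 for the 10 genes, -0.42 for the signalling list and -0.47 for the other pacemaker list.

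Cell types that surround muscle or share its markers are given beside the 12.3% of all tested genes that fell, the 15.2% that rose and their median of 0.00; the lists are short, and single calls move their shares widely. Pericytes also make Acta2; their genes fell in 2 of 7 tested genes and rose in 0 (median -0.23), among them Rgs5 and Pdgfrb at 1.35-fold and 1.27-fold, while Cspg4 had a log2 change of -0.54. Subepithelial and PDGFRA-positive cell genes fell in 2 of 6 (median -0.44), namely P2ry1 and Pdgfra by 1.85-fold and 1.46-fold, and Bmp5 had a log2 change of -0.34. Fibroblast and matrix genes fell in 5 of 9 (median -0.36), with Fbln1, Lum and Col6a1 at 1.63-fold, 1.36-fold and 1.29-fold. Endothelial genes fell in 3 of 8 (median -0.25), with Prox1, Lyve1 and Pecam1 at 1.92-fold, 1.45-fold and 1.40-fold. In the neuron and glia list 1 of 12 fell (median -0.32): S100b decreased 6.15-fold, while Elavl4 and Ret had log2 changes of -0.55 and -0.42 and did not pass.

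Epithelial genes had a median log2 change of 0.09, with 4 of 10 rising and 0 falling, led by Krt18, Krt8 and Krt20 at 2.86-fold, 2.53-fold and 2.34-fold. All 4 that rose were keratins. Epcam, Cdh1, Vil1, Cldn7, Cdx2 and Elf3 did not pass, with log2 changes from -0.28 (Elf3) to 0.13 (Cdh1). The mesothelial list had 4 tested genes. Of these Msln rose 3.12-fold, with 646 and 422 normalized counts in the controls and 1024 and 2596 in the knockouts, while Upk3b, Wt1 and Lrrn4 did not pass (log2 changes of 0.05, -0.19 and -0.18). Like Ano1, Msln was highest in Lats1/2 KO replicate 2. Of 12 striated muscle genes with a row 4 were tested, and Acta1, Actc1 and Ckm, at 60.6 to 262 normalized counts, did not pass. Tnni2, a fast skeletal troponin, rose from 10.4 and 4.57 to 26.8 and 38.9. The non-muscle actin Actg1 rose (log2 change 0.39, adjusted p = 0.0173 by limma), and Actb had a log2 change of 0.31 (adjusted p = 0.0649 by limma). Together the lists of other cell types had 4 falls without Lats1/2 KO replicate 1 and 2 without replicate 2, from 14 with all libraries.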

How the data were processed

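RNA-seq was done on total small intestine in 2 control and 2 Lats1/2 KO samples. Per the submitters' processing notes, STAR, featureCounts and DESeq2 with GRCm38 were used; the sources used here give no versions or settings. The authors deposited normalized counts, a signal in which each library's gene counts had been divided by a common factor, as the values show. Dividing by each column's smallest value gave whole reads for 100% of values (tolerance 0.001 reads). The authors also deposited a log2 fold change, its linear fold (ratio) and adjusted p-values.

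A mean-variance trend model in limma 3.58.1 (R 4.3.3) was fitted to log2(normalized count + 1) for 16415 genes with at least 10 in at least 2 libraries. Fold changes on this scale understate changes of low genes. P-values were adjusted over all tested genes (Benjamini-Hochberg, threshold 0.05), with 2 residual and 3.53 prior degrees of freedom. The fit was tested on simulated data. Values are mean ± SD, n = 2 per group, or single libraries. The alternatives were pseudocounts of 0.5 and 5, no filter, a filter of 50, library-size scaling, edgeR 4.0.16 and limma-voom with TMM scaling, DESeq2 1.42.0, and leaving out each library. Precision rests on read counts of 184 to 334 per library for Kit and 8999 to 10823 for Acta2.

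Genes and lists were chosen with earlier results of these data known. Of each list the 3 tested genes with the smallest adjusted p were named, or all genes of lists with 4 or fewer tested; some are not reported here, and others are marked as named after their values were seen. Column names give a library's group but not its sample.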

Additional observations from a re-analysis of the deposited data

How the results depend on the processing

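Kit kept its fall and its call in all 12 alternatives. The other 9 genes stayed on their side of the threshold in all but 4 fits: Synpo2 with DESeq2, and Synpo2, Myh11 (log2 change -0.60) and Ano1 without Lats1/2 KO replicate 1. Leaving out 1 library turned the direction of 6 genes, with log2 changes of -0.11 to 0.44 for Actg2, -0.60 to 0.067 for Myh11, -0.33 to 0.18 for Cnn1, -0.41 to 0.10 for Des, -0.26 to 1.003 for Ano1 and -0.14 to 0.076 for Lats2. The low ends came without Lats1/2 KO replicate 1 and the high ends without replicate 2, the other way round for Ano1, and Cnn1 (0.04) and Lats2 (0.0026) also turned without control replicate 2. Scaling by library size, TMM or DESeq2 shifted the median of all genes by at most 0.01 and turned none of the 10.

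DESeq2 called 2 falls among the 10 genes. With no filter, 1318 of all genes fell, 0 other pacemaker genes rose and 9 genes of other cell types fell. Leaving out 1 library gave 908 to 2171 rises and 864 to 1612 falls over all genes, 0 to 1 rises and 1 to 3 falls among the 10, 2 to 7 rises and 3 to 11 falls among other smooth muscle genes, 0 to 1 rises and 2 to 6 falls among other pacemaker genes, and 2 to 13 falls in other cell types. A group then has 1 library, assumed to vary like the others. No paired analysis was possible because the library columns do not carry the replicate numbers of the labels. Genes below the filter were not tested, and the spread is estimated from 2 libraries per group.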
